A study of Mus musculus with 2 samples.

Results

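Chemokines and their receptors were examined in nascent RNA of mouse bone marrow-derived macrophages (BMDMs) before and 1 hr after interleukin-4 (IL-4), as the set of gene names that begin with Ccl, Cxcl, Ccr, Cxcr or Cx3c followed by a digit, l or r. Of the 11054 gene names carried by transcripts in either library, 17 names of this set were counted here. They were carried by 37 of 43122 transcripts in control and by 46 of 51365 transcripts after IL-4. The measurement was global run-on sequencing (GRO-seq), in which isolated nuclei extend the RNA already begun by engaged polymerases in the presence of a bromine-labeled nucleotide, so that RNA in the act of being made is captured with its strand. Both libraries came from wild-type cells of 8 to 12 week old mice on the C57BL/6 background, grown from bone marrow for 6 days in L929 supernatant, a source of the macrophage growth factor M-CSF. The control had no further agent, and the other received IL-4 at 20 ng/ml for 1 hr. Run-on reactions were made in duplicate and pooled into 1 library per condition, so no value below has a replicate, no test of a difference was possible, and every difference is one between 2 libraries.

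Chemokines are small secreted proteins that guide leukocytes along a gradient. CC and CXC chemokines are named for the spacing of their first cysteines, and act on G protein-coupled receptors of the matching class, which trigger cell movement through Gi proteins and phosphoinositide 3-kinase and are silenced by arrestins. Macrophages are both a source and a target of these signals. Ligands such as Ccl2, Ccl3 and Ccl4 are made in inflammation, whereas Ccl17, Ccl22 and Ccl24 are textbook products of macrophages polarized with IL-4, a cytokine that signals through the transcription factor STAT6.

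The value of a transcript was the score that the authors deposited with it, printed to 1 decimal, and the value of a gene name was its top-scoring transcript's score. Scores of different genes were not ranked against each other, since how the score depends on length was not given. The median gene value was 0.5 in control and 0.3 after IL-4. A ratio between the libraries is given as a log2 ratio from which the median over all 8879 names with a value in both libraries, −0.38, was subtracted. Such a centered ratio is accompanied by its rounding range, the values that are possible when each score may be off by 0.05, which is not a replicate error. A name was counted as higher or lower when the centered ratio reached 2-fold.

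The start of a gene is where nascent transcripts would begin. The 3 promoters shown are examples that hold matches of the motifs described below. The window at the start of Ccl25, which had transcripts in both libraries, held no match and is not shown. At Cxcr4, transcripts began at the annotated start in both libraries. At Ccl9, the first intron was transcribed in both. At Ccl17, no transcript was called inside the gene in either library, and its window held the STAT6-type motif. The windows of Ccl2, Ccl7 and Ccl24, the ligands with transcripts called from their start after IL-4 only, were not searched. The 250 bases before the RefSeq start are printed 5′ to 3′ on the strand of the gene (build GRCm38.p6, the build of the files), with capitals for 4 kinds of motif, searched on both strands. The STAT6-type motif is TTC and GAA with any 4 bases between them, a spacing that STAT6 prefers. The motif of other STATs is the same with any 3 bases between. The NF-κB-type motif is GGG and TTCC with any 3 bases between, and the last is the TATAAA box.
Cxcr4, chr1:128592300-128592549, minus strand: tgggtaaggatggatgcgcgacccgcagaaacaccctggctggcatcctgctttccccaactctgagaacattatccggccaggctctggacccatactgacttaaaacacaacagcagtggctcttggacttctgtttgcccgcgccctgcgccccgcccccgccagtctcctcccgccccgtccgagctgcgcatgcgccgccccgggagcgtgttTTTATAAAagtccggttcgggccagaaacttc
Ccl9, chr11:83578637-83578886, minus strand: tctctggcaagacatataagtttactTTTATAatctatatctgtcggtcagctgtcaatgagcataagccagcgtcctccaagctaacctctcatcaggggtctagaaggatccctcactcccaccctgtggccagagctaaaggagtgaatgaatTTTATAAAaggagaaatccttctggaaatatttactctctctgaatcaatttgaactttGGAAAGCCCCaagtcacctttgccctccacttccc
Ccl17, chr8:94810203-94810452, plus strand: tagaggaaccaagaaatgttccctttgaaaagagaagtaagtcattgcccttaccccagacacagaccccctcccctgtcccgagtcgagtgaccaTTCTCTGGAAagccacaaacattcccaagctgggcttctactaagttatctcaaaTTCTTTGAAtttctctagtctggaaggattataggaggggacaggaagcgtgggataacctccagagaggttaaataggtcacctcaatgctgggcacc
In Cxcr4 the capitals join a TATAAA at positions -30 to -25 from the start with an overlapping match of the same motif on the other strand at -32 to -27. In Ccl9 they mark TATAAA matches from -224 to -219 and from -94 to -87, and an NF-κB-type match at -35 to -26. In Ccl17 they mark the STAT6-type motif at -154 to -145 and that of other STATs at -99 to -91.

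Transcription of the inflammatory CC ligands Ccl2 and Ccl7 and of the eosinophil attractant Ccl24 was called after IL-4 and not in control, from the start of each gene and on its own strand. Ccl2 (ENSMUSG00000035385), which recruits monocytes through Ccr2, lies at chr11:82035571-82037453 on the plus strand. Its value after IL-4 was 0.5, from a transcript of 280 bp that began 39 bp past the gene start and reached into intron 1, and a second transcript over exon 2 had a score of 0.2. No control transcript carried its name or overlapped it. Ccl7, a neighbor of Ccl2 that also binds Ccr2, had scores of 0.3, 0.2 and 0.3 in 3 transcripts that ran from 51 bp before the gene start past its end, and 0.1 in a further transcript beyond the gene. In the whole 81.2 kb cluster from Ccl2 to Ccl8 no transcript was called in control and 6 after IL-4, which were the Ccl2 and Ccl7 transcripts just given. Of 10645 genes with a transcript on their own strand in at least 1 library, 14.4% had one after IL-4 only. Ccl24 had a score of 0.2 in a transcript that began 20 bp past its start and 0.1 in a transcript near its end, both after IL-4. The scores of Ccl24 lay below the median gene value of that library, and those of Ccl7 did not exceed it. Scores of at most 0.2 made up 45.4% of all control and 63.9% of all IL-4 transcripts. No read counts were given, so a missing call does not show that these genes were silent in control.

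Ccl3 and Ccl4 are neighboring ligands made by activated macrophages, and transcripts that carried each name were called in both libraries. The highest score named Ccl3 was 1.8 in control and 1.0 after IL-4, a centered log2 ratio of −0.47 (rounding range −0.58 to −0.36). This transcript did not lie in Ccl3. It was 130 bp long in control, began at the same base in both libraries 2487 bp upstream of the Ccl3 start on the opposite strand, and fell in no GENCODE gene, although the longer RefSeq model of Ccl4 covers it. Inside Ccl3 on its own strand no transcript was called in control and 1 with a score of 0.1 after IL-4. On the opposite strand within Ccl3, a control transcript of 0.2 lay over exon 2, and one of 0.1 with IL-4 crossed the gene start, so these were different positions. Ccl4 went from a highest score of 0.4 in control to 0.2 after IL-4, each within the first exon and intron, with a centered log2 ratio of −0.62 (rounding range −1.21 to −0.11). A second position in intron 2 had 0.3 in control and 0.2 after IL-4. Both positions of Ccl4 had the lower score after IL-4, while the share of the gene covered on its strand was 32.0% in control and 34.1% after IL-4.

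The other CC ligands were Ccl9, Ccl6, Ccl25 and Ccl17. Ccl9, a ligand of Ccr1, had a score of 0.2 in control and 0.1 after IL-4 over the beginning of intron 1, 174 and 191 bp past the start. The rounding range of its centered log2 ratio, −1.94 to 0.38, spanned both directions, and with its scores summed the ratio was 0.87. The name Ccl6 was carried by 1 control transcript, of score 0.1, beyond the end of the gene. Ccl25, known as an attractant of gut-homing lymphocytes through Ccr9, had 0.7 in control and 0.3 after IL-4 from a transcript that began 36 bp past its start in control and 30 bp past it after IL-4, a centered log2 ratio of −0.84 (rounding range −1.21 to −0.51). That transcript also overlapped the gene Elavl1 on the opposite strand, so it lies at a start region that both genes share. A second position in intron 2, at a long terminal repeat, had 0.4 in control and 0.1 after IL-4.

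Ccl17 was the only name at least 2-fold higher, with 0.4 in control and 1.0 after IL-4, a centered log2 ratio of 1.70 (rounding range 1.46 to 1.96). None of its transcripts lay in Ccl17. All of them, 1 in control and 3 after IL-4, lay in Ciapin1, a gene on the opposite strand, 10947 to 13949 bp from the Ccl17 start, and on the strand of Ciapin1. The score of 1.0 belonged to a segment of 36 bp in the last exon of Ciapin1 that had no counterpart in control. At the position called in both libraries, in intron 7 of Ciapin1, the score went down from 0.4 to 0.2. The 66.5 kb from Ccl22 through Cx3cl1 to Ccl17 held no transcript in either library. Thus no transcript was called for Ccl17 or Ccl22 themselves at 1 hr. Without read counts, this does not show that their nascent RNA was absent.

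The CXC ligand names were Cxcl16, the membrane-bound ligand of Cxcr6, and Cxcl17. The name Cxcl16 was carried in control by 2 transcripts of 0.2 and 0.4 that ran away from its start on the opposite strand into Zmynd15, and by none after IL-4. Transcripts inside Cxcl16 on its own strand carried the names of its neighbors Zmynd15 and Med11. In control there were 4, with scores of 0.4, 0.3, 0.7 and 0.2 from the start to the end of the gene, and after IL-4 there was 1, with a score of 0.2. The highest score inside Cxcl16 was thus 0.7 in control and 0.2 after IL-4, a centered log2 ratio of −1.45 (rounding range −1.96 to −1.02) among values taken by same-strand overlap. At the position near the start that was called in both libraries, 261 and 262 bp from it, the scores were 0.4 in control and 0.2 after IL-4, a centered log2 ratio of −0.62. Cxcl17 was named by 1 transcript of 0.4 after IL-4, which lay in another gene, 4732471J01Rik. No other CXC ligand was named, and the clusters of Cxcl9 to Cxcl11 and of Cxcl5 to Cxcl2 held no transcript of a Cxcl gene. The latter held 1 transcript in each library, that of Pf4.

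**Figure D1:**
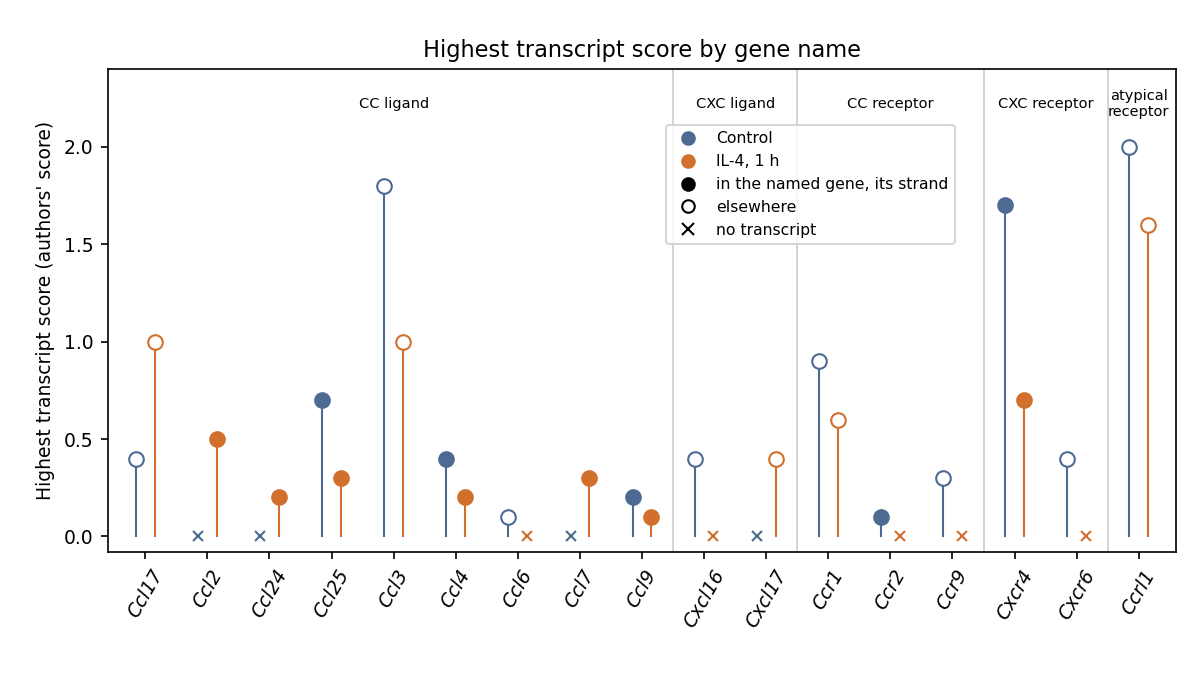
Highest transcript score (vertical axis, in the authors' score units) for each of the 17 names, with 1 control (blue) and 1 IL-4 (orange) value per name. Filled circles mark scores from inside the named gene on its strand, open circles mark scores from elsewhere and crosses mark names with no transcript, and the open circles of Ccl17, Ccl3, Ccr1 and Ccrl1 include the 4 highest IL-4 values of the set other than that of Cxcr4.

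Cxcr4 had the most complete record of all members, with transcripts at its start, in its intron and in its last exon in both libraries. Every position called in both had the lower score after IL-4. Before centering, 59.5% of all names with a value in both libraries had the lower value after IL-4. Cxcr4 (ENSMUSG00000045382), the receptor of Cxcl12 that retains leukocytes in bone marrow, lies at chr1:128588199-128592293 on the minus strand. At the gene start, 1 bp past it in control and 3 bp past it after IL-4, the score was 0.7 in control and 0.5 after IL-4, a centered log2 ratio of −0.11. Further into intron 1, a control transcript of 592 bp had 0.7 and the IL-4 transcript over it, 852 bp long, had 0.2, a centered log2 ratio of −1.43. The same IL-4 transcript also lay over a neighboring control transcript of 0.4, so these are not separate observations. The last exon had 1.7 in control and 0.7 after IL-4, which gave Cxcr4 its value and a centered log2 ratio of −0.90 (rounding range −1.05 to −0.76), just short of 2-fold. The ratio at the other positions ranged from −1.43 to −0.21, so the start had the smallest difference, although rounding alone could reorder the start and the position at −0.21. A transcript on the opposite strand in intron 1 had 0.7 in control and 0.2 after IL-4, and a transcript of 0.2 running away from the start, 169 bp upstream of it, was called in control and not after IL-4. The share of the gene covered on its strand was 40.2% in control and 37.9% after IL-4.

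The other receptors were Ccr1, Ccr2, Ccr9 and Cxcr6. Transcripts named for Ccr1, a receptor of Ccl3 and Ccl9, lay 43115 to 45540 bp from its start in a stretch with no annotated gene. At that place transcripts of opposite strands began 62 bp apart in control, minus and plus with scores of 0.8 and 0.6, and 72 bp apart after IL-4, with 0.6 and 0.5. A further plus-strand transcript had 0.9 in control but 0.2 after IL-4, and the last of them 0.4 and 0.2. For the name as a whole the highest scores were 0.9 and 0.6, a centered log2 ratio of −0.21 (rounding range −0.41 to −0.01). These came from different transcripts on opposite strands, so no single position had this ratio. By position it was −1.79 where control had 0.9 and −0.04 where IL-4 had 0.6. It was 0.12 and −0.62 at the remaining positions. Ccr2, the receptor of Ccl2 and Ccl7, had 2 transcripts of 0.1 in control on its strand and none after IL-4. Ccr9 was named by 1 control transcript of 0.3 on the opposite strand, and Cxcr6 by 1 control transcript of 0.4 that lay in Fyco1. The atypical receptor Ccrl1, now called Ackr4, which removes Ccl25 and other chemokines, was named by 5 control and 11 IL-4 transcripts, all in Dnajc13 on the strand of that gene. Their highest score was 2.0 in control and 1.6 after IL-4, a centered log2 ratio of 0.06 (rounding range −0.02 to 0.14). Of the 4 positions in Dnajc13 called in both libraries, that one went from 2.0 to 1.6, another from 0.8 to 0.2, and the other two from 0.3 to 0.2. No transcript in either library overlapped Ackr4 itself on its strand.

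**Figure D2:**
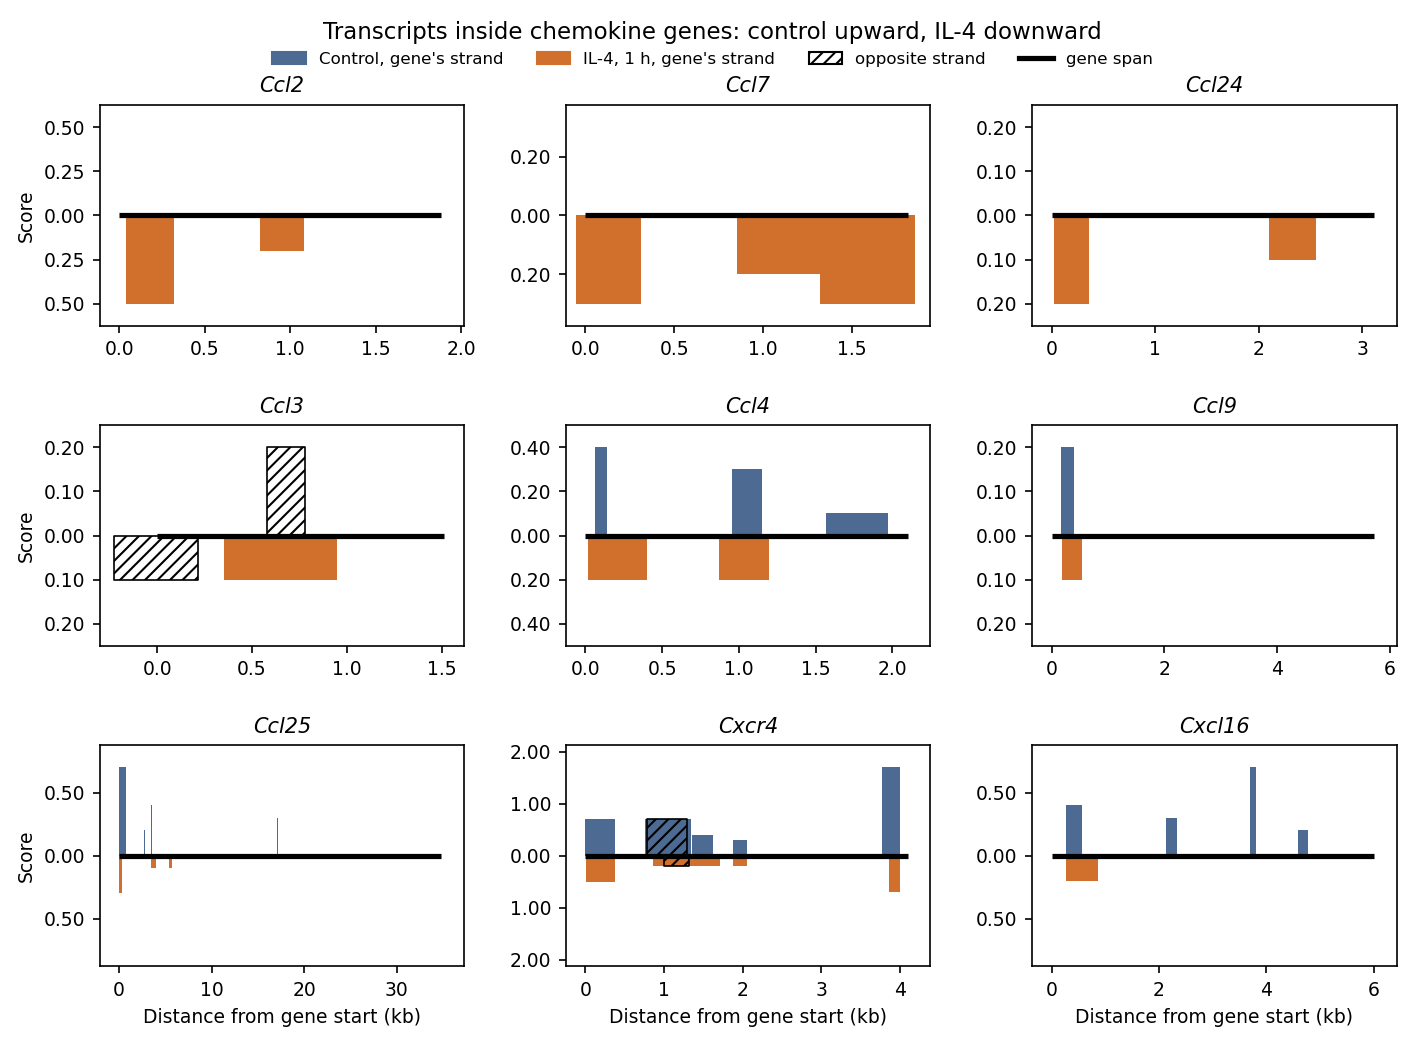
Transcripts inside 9 genes drawn by distance from the gene start (horizontal axis, kb) and score (vertical axis), control upward in blue and IL-4 downward in orange, with hatching for the opposite strand and a black line for the GENCODE gene span. Ccl2, Ccl7 and Ccl24 have bars after IL-4 only, starting at or within 51 bp of the gene start, whereas Cxcr4 has bars at matching places in both libraries, from 0.7 and 0.5 at the start to 1.7 and 0.7 in the last exon.

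Counted over the set, 8 names had a value in both libraries, 5 were named in control only (Ccl6, Cxcl16, Ccr2, Ccr9 and Cxcr6) and 4 after IL-4 only (Ccl2, Ccl7, Ccl24 and Cxcl17). Of all 11054 names, 8.58% were found in control only and 11.1% after IL-4 only. These were 29.4% and 23.5% of the 17. The 3 receptor names found in 1 library only were all in control, but only Ccr2 among them had a transcript inside the gene on its strand. CC ligands made up 9 of the 17 names, with 3 found after IL-4 only and 1, Ccl6, in control only. Of the 8 names in both, 1 was higher (Ccl17) and 0 were lower, where 8.06% of all 8879 names were higher and 8.62% were lower, so both counts were near what the background share gives for 8 names. The median centered log2 ratio of the 8 was −0.55, with 6 of them below 0. Without centering, 1 was higher and 4 were lower, where 5.98% of all names were higher and 24.3% were lower. The range of the 8, −0.90 to 1.70, compared with a 5th percentile of −1.21 and a 95th percentile of 1.38 over all names.

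**Figure D3:**
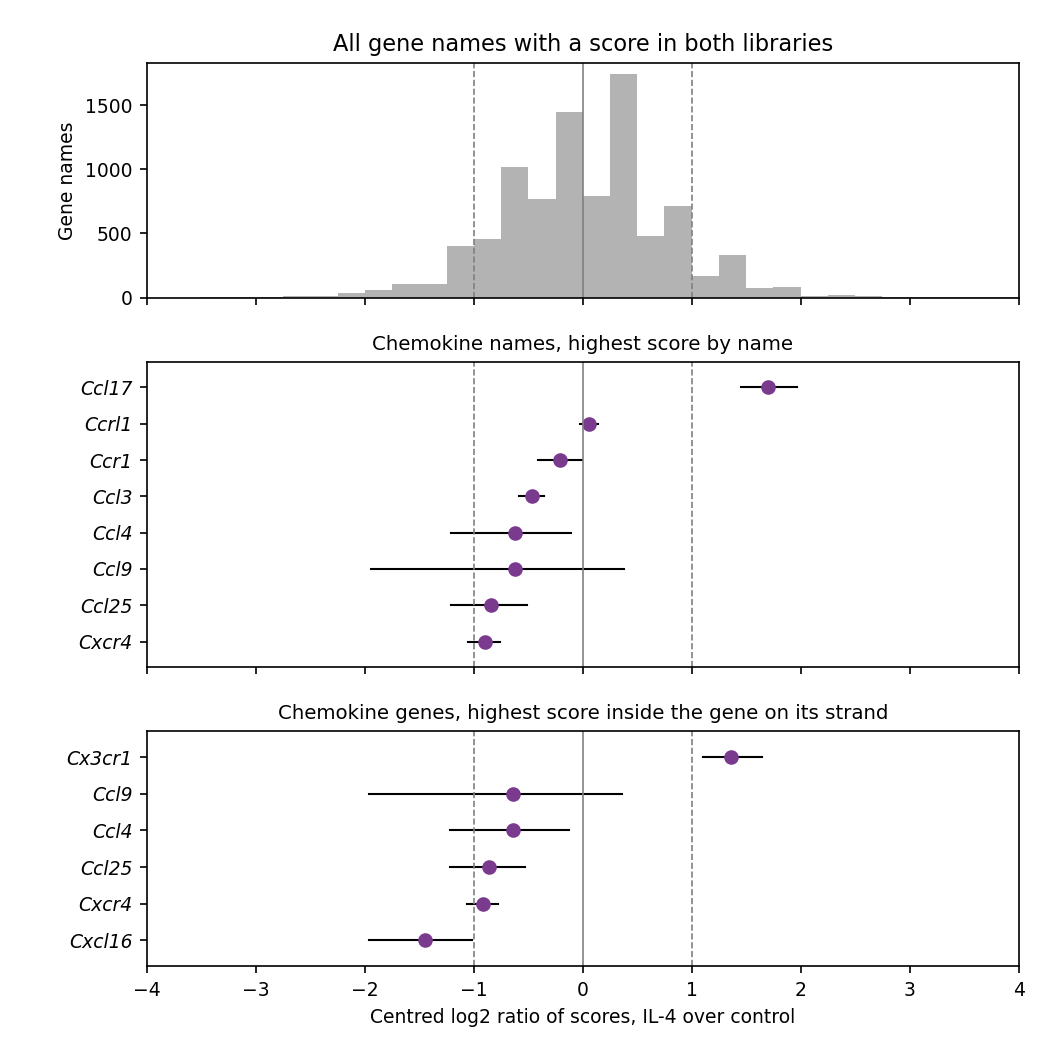
Centered log2 ratio of scores, IL-4 over control (horizontal axis), for all 8879 names as a histogram, for the 8 names with a value in both libraries, and for the 6 chemokine or receptor genes with a same-strand transcript inside the gene in both. Horizontal bars are rounding ranges and dashed lines mark 2-fold, and by name only Ccl17 at 1.70 lies outside the dashed lines.

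The place of a transcript often did not match its name. Names had been given by the nearest gene start, whatever the strand. In control, 15 of 37 transcripts (40.5%) lay inside the named gene on its strand, and after IL-4, 18 of 46 (39.1%) did. The names Ccl17, Ccl6, Cxcl16, Cxcl17, Ccr1, Ccr9, Cxcr6 and Ccrl1 had no such transcript in either library, which left 9 of 17 names with one. Over 10385 names that are GENCODE symbols, 79.2% had at least 1. Another 9 control and 15 IL-4 transcripts lay in a different gene on the strand of that gene, and 9 and 11 lay in no annotated gene.

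**Figure D4:**
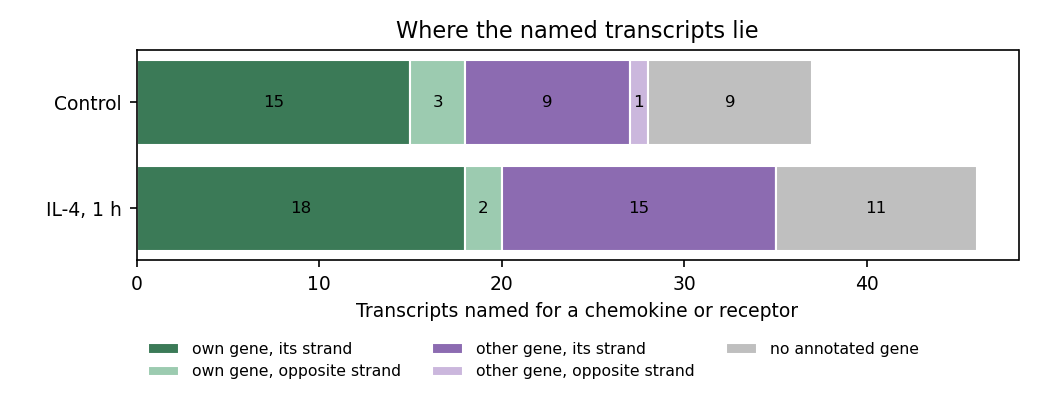
Number of transcripts (horizontal axis) that carry a chemokine or receptor name in each library, split by where they lie. The darkest segment, the named gene on its own strand, holds 15 of 37 in control and 18 of 46 after IL-4.

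Values were therefore also taken from the highest score among transcripts inside each gene on its strand, whatever name they carried. Of 57 GENCODE genes counted for the name pattern, 7 had such a transcript in control and 10 after IL-4. For 46 of the 57, none was called in either library. The same share over all GENCODE genes was not computed, so this count is not a trait of the set. Among the others, Ccr2 had one in control only and 4 (Ccl2, Ccl3, Ccl7 and Ccl24) after IL-4 only. The background was the 10645 genes with one in at least 1 library. Of that background, 8.65% had one in control only and 14.4% after IL-4 only. Of the 6 with a value in both libraries, Cxcl16 was at least 2-fold lower and Cx3cr1 was at least 2-fold higher, against 8.40% lower and 8.27% higher over 8186 genes. The highest scores of Cxcl16 came from different places in the gene, and the position called in both libraries had −0.62, under 2-fold. The value of Cx3cr1 came from transcripts of Csrnp1 and Gorasp1, which its long GENCODE model contains, and within the RefSeq model of Cx3cr1 no transcript was called. Ccl4, Ccl9, Ccl25 and Cxcr4 had centered log2 ratios from −0.92 to −0.64. The ligands called after IL-4 only were covered over 28.7% (Ccl2), 70.4% (Ccl7), 25.6% (Ccl24) and 39.2% (Ccl3) of their length.

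**Figure D5:**
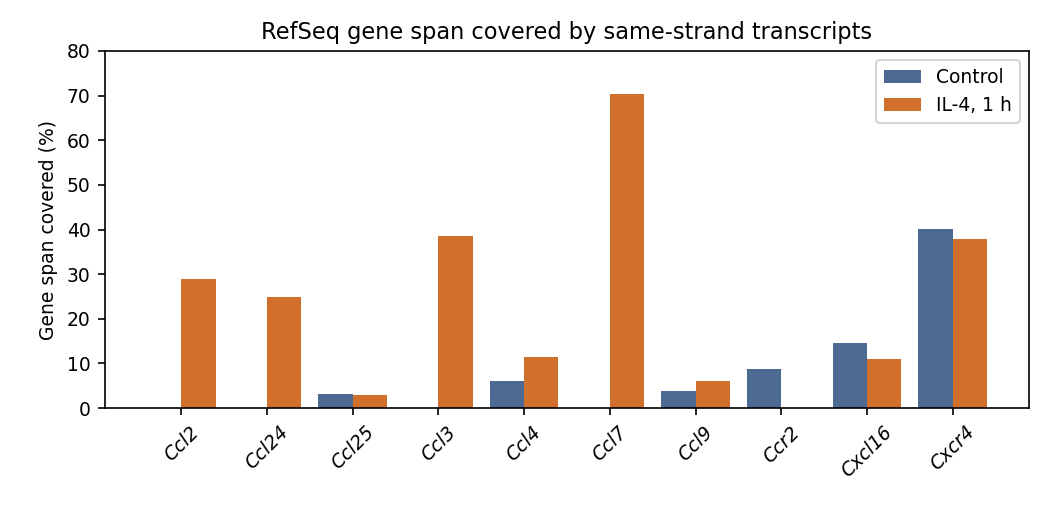
Percentage of the RefSeq gene span covered by transcripts on the strand of the gene (vertical axis) in control (blue) and after IL-4 (orange), for the 10 chemokine or receptor genes with any. Bars at 0 mean that no transcript was called, and Ccl7 at 70.4% after IL-4 has the tallest bar (the RefSeq span of Ccl4 also holds the transcript named Ccl3).

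The transcripts after IL-4 were longer and had lower scores than those in control, among these genes as in the whole libraries. Their median length went from 203 bp in control to 330.5 bp, against 227 and 312 bp over all transcripts. Scores of at most 0.2 made up 32.4% of the control and 73.9% of the IL-4 transcripts of the set, against 45.4% and 63.9% of all. The number of transcripts of the set after IL-4 was 1.24 times the control number, but 0.48 times it at scores of at least 0.3 (12 against 25), where the same ratios over all transcripts were 1.19 and 0.79. In control 43.2% of the transcripts had no same-strand counterpart after IL-4, against 37.4% of all. After IL-4 56.5% had none in control, against 48.1% of all. Several transcripts can come from 1 gene, as the 5 and 11 in Dnajc13 did, so they are not independent and no interval is given. Since every ratio of scores sits beside this difference between the libraries, its part in the lower values of single genes was not tested.

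Promoter windows were found in RefSeq for 11 of the 17 names. Those of Ccl2, Ccl4, Ccl7, Ccl24, Cxcl16 and Cxcl17 were not searched, so the counts say nothing of these genes. Over all genes of the name pattern, 51 windows of 42 genes were searched in their 250 bases before the start. The STAT6-type motif was in 1 (1.96%), that of Ccl17, and in 5.85% of all 32851 windows. The motif of other STATs was in 4 (7.84%) and in 7.02% of all. The NF-κB-type motif was in 9 (17.6%) and in 4.65% of all, with Cxcl1, Cxcl2, Cxcl3 and Cxcl10 among the genes that held it, none of which had a transcript in either library, beside Ccl9, which had. TATAAA was in 12 (23.5%) and in 12.4% of all, with Cxcr4, Ccl9 and Ccl25 among them. In Ccl25 it was in the window of a start further downstream, and the window at the start where its transcripts were called held none of the 4 motifs. The window of Ackr4, the present symbol of Ccrl1, also held TATAAA. It was outside these counts, which went by symbols that match the name pattern. These are matches of letters and not measured binding.

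On a list of atypical receptors (Ccrl1 among them) and chemokines with other names, 7 of 10 genes had no transcript. Pf4, a chemokine of platelets and macrophages, had 0.1 in control and 0.2 after IL-4, a centered log2 ratio of 1.38 whose rounding range, 0.38 to 2.70, began below 2-fold. Cmklr1, the chemerin receptor, had 0.5 in both libraries. Among 31 genes of chemokine receptor signaling and its termination, 29 had a value in both libraries. The median of their centered log2 ratios was −0.30, with 5 lower (17.2%) and 1 higher (3.45%), beside the 8.62% of all names that were lower and 8.06% that were higher. The lower ones were Gng2, a G protein γ subunit (2.7 in control and 1.0 after IL-4), Plcb2, a phospholipase driven by G proteins (0.7 and 0.2), the GTPase Rac2 (3.6 and 1.0), and the arrestins Arrb1 (2.8 and 0.7) and Arrb2 (1.7 and 0.5). The centered log2 ratio was −1.05 for Gng2, with a rounding range of −1.16 to −0.96 that reached below 2-fold. It was −1.43 for Plcb2 (−1.94 to −1.0), −1.47 for Rac2 (−1.56 to −1.38), −1.62 for Arrb1 (−1.75 to −1.50) and −1.39 for Arrb2 (−1.58 to −1.21). Both arrestins, which uncouple receptors from G proteins, were thus lower, while Prkcd, a protein kinase C, was higher with 1.1 in control and 1.9 after IL-4, a centered log2 ratio of 1.17 (rounding range 1.06 to 1.27). The same calls were made by same-strand overlap, where Lyn, a kinase of the Src family, was lower as well. Rgs1 and Rgs18, which shorten Gi signals, were named after IL-4 only, at 0.1 and 0.3.

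The labels were compared with marker genes. Among 10 textbook IL-4 targets, Mrc1 had 2.7 in control and 13.1 after IL-4, Socs1 had 0.3 and 2.5, and 6 others were named after IL-4 only, of which Arg1 had no transcript inside the gene on its strand. Irf4 had 1.7 and 1.2 by name, and inside the gene on its strand 0.4 after IL-4 only. Retnla was not named. Of 8 macrophage markers, 7 had a value by name in both libraries, with summed scores of 19 and 17.8, and the eighth, Spi1, had 0.9 and 0.6 by same-strand overlap. Cd68 gave 5.8 and 7.3 of the summed scores, but inside the gene on its strand it had 1.2 and 0.8. No marker of dendritic cells or fibroblasts was named. Cd8a of the T cell list and Cd79a of the B cell list were named but had no transcript inside the gene on its strand, and the other 4 T cell and 3 B cell markers had none. Of 5 granulocyte markers, S100a8 had 0.5 and 0.3, Mpo had 0.6 in control only and S100a9 had 0.2 after IL-4 only. The part of cells other than macrophages in the values of the chemokine genes was not tested.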

How the data were processed

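GRO-seq was performed by the authors in 2 libraries of BMDMs, control and IL-4 1 hr (1 each, pooled run-ons). Per the labels, BWA 0.7.10, SAMtools 0.1.19, HOMER 4.2 and mm10 were used. The study's methods give alignment to mm10 with default parameters, removal of artifact regions and calling of transcripts in each library on its own in HOMER's GRO-seq mode, followed by annotation to the nearest gene start. The authors deposited a score for each transcript, to 1 decimal. Its scaling is not given in the sources used here, and no read counts were given, so the depth is unknown and its precision cannot be stated.

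Gene names were taken from the files. The members and lists were chosen with earlier results of these data known. Some genes, 1 name of the set and 1 of the pathway list among them, are not reported here and were left out of the counts over members and lists. The other 17 names are reported, in full where the value reached the median gene value in at least 1 library or the ratio reached 2-fold, with pathway genes past 2-fold and with Ccl17, Ccl22 and Ccl24 whether or not they were detected. The values inside Cxcl16 and Cx3cr1, and Lyn by overlap, were described after they were seen. Positions were compared with GENCODE M21 gene spans (GRCm38) by overlap of at least 1 bp, and promoters came from RefSeq (GRCm38.p6). The sign of the deposited distance to the start was not used. Python 3.11.15 with pandas 2.3.3 and scipy 1.17.1 was used, and the ratios and overlaps were tested on simulated data. Alternatives covered the gene value, filters on low scores and repeats, centering, the pseudocount, missing values, the fold and the overlap.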

Additional observations from a re-analysis of the deposited data

How the results depend on the processing

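No paired analysis was possible because there was 1 library per condition, and for the same reason no library could be left out. The median centered log2 ratio of the names in both libraries, −0.55, was below 0 under every alternative run, from −1.0 with the transcript nearest the gene start to −0.08 with score times length. It was −0.92 without centering and −0.84 by overlap with the RefSeq span. By name, 1 was higher and 0 lower at 2-fold. The higher count became 2 with score times length (17.2% of all names), which were Ccl9 at 1.12 and Ccrl1 at 1.10, while Ccl17 fell to 0.65 and was no longer called. It was 0 with the transcript nearest the start (11% of all) and 5 with missing values set to 0.1 (13.1%). With the 2 alternatives chosen after seeing the data it was 0, by overlap with the RefSeq span (8.01%) and with named transcripts inside their own gene (8.27%), where Ccl17 has no transcript. By overlap with the GENCODE span the 1 higher gene was Cx3cr1. The lower count became 2 with summed scores (13.7% of all names), 3 with score times length (16.9%), 6 with the transcript nearest the start (27.7%), 1 by same-strand overlap with either the GENCODE (8.40%) or the RefSeq span (8.27%), 4 without centering (24.3%), 3 with missing values set to 0.1 (12.3%) and 4 at 1.5-fold (24.4%). Ccl17 reversed to −2.0 with the transcript nearest the start, which is by construction another segment of Ciapin1. Of the names under 2-fold, Ccl9 turned from −0.62 to 0.87 with summed scores and 1.12 with score times length, Ccl4 turned from −0.62 to 0.24 with score times length, and Ccrl1, at 0.06, ranged from −0.32 without centering to 1.10. The names lower with summed scores were Ccl25 (−1.39) and Cxcr4 (−1.18). With score times length they were Ccl25 (−2.03), Cxcr4 (−1.75) and Ccr1 (−1.12). With the transcript nearest the start Cxcr4 was −0.49. The number of transcripts after IL-4 over control went from 1.24 to 0.48 at scores of at least 0.3. At scores of at least 0.3, the share without a counterpart was 20% of 25 transcripts in control, against 22.5% of all. After IL-4 it was 41.7% of only 12 transcripts, against 19.7% of all. When an overlap of 50% was asked, it was 51.4% in control (42.8% of all) and 71.7% after IL-4 (64.2% of all). Of 82 recomputed ratios of single names, 57 stayed inside the rounding range. Scores of 0.1 and 0.2 are known only to within 0.05, which limits Ccl9, Ccl24, Ccr2 and Pf4 most.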

Other observations

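The 139 kb from Ccl5 to Ccl4 held 8 transcripts in control and 9 after IL-4, and none of them lay in Ccl5 on its strand. Transcripts beyond the annotated gene end were called for Ccl7, Ccl24 and Ccl9 after IL-4 and for Ccl3, Ccl4, Ccl6 and Cxcr4 in control. By same-strand overlap Ciapin1 had 0.4 in control and 1.0 with IL-4, while the name Ccrl1 likewise shared its 2.0 and 1.6 with Dnajc13. Csrnp1, whose transcripts lie in the GENCODE model of Cx3cr1, had 0.4 in control and 0.8 after IL-4.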
